A study of Macaca mulatta with 20 samples.

Results

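HIPK2 encodes homeodomain-interacting protein kinase 2, a nuclear serine/threonine kinase. It is 1 of 14132 genes with a probe set of their own, and was measured by the 7 probe sets, of 52865 on the array, whose only gene symbol in the platform annotation is HIPK2. RNA came from 20 corpora lutea of female rhesus macaques with normal menstrual cycles, and each gland was hybridised to its own array. A corpus luteum develops from the follicle after ovulation and is the source of progesterone in the cycle. The glands fall into 5 stages of 4 arrays each, named by the time since the midcycle rise of luteinizing hormone: 3 to 5 days (early), 7 to 8 days (mid), 10 to 12 days (mid-late), 14 to 16 days (late) and 18 to 19 days (very-late). The labels name no treatment. Per the labels, the tissue luteinizes at the early stage, makes most progesterone at the mid stage, still makes it at mid-late, has stopped or is about to stop at the late stage, and regresses structurally at the very-late stage, after menses has occurred. The labels call the arrays biological replicates and do not say whether an animal gave more than 1 gland.

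HIPK2 was picked for its fall from the mid to the mid-late stage. The differences between those stages are therefore given as a description, and tests were run only on the early, late and very-late arrays, which that choice did not use. As background, HIPK2 promotes apoptosis after severe DNA damage by phosphorylating other nuclear proteins, and it also acts with transcriptional corepressors and with factors of the Wnt and TGF-beta pathways. Its protein is kept low in unstressed cells by ubiquitin ligases such as SIAH1, SIAH2, WSB1 and MDM2. An array reads its mRNA and not its protein. In whole tissue, fewer cells that express a gene and less RNA per cell cannot be told apart.

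Values are log2 signals from RMA, the normalisation the authors used, so a difference of 1 is 2-fold. The tissue had high signals of luteal genes: the mean of the 3 measured markers of steroid-making cells (STAR, HSD3B2 and INHA, of 6 listed) was 12.13 to 12.56 in early and mid arrays and 6.54 to 8.76 in very-late arrays. Background was taken from 683 probe sets for viral genomes, with a median of 3.42 and a 95th percentile of 4.3. The 7 HIPK2 probe sets are called by the number in their name, so 31361 stands for MmugDNA.31361.1.S1_at. Over the 20 arrays their means were 9.26 for 31361, 8.72 for 18166, 8.08 for 18164, 6.96 for 27017, 5.24 for 18161, 4.00 for 40535 and 3.51 for 7761. The first 5 were above the 95th percentile of background in all 20 arrays, 40535 in 4 arrays and 7761 in none. Probe set 7761 was above the background median in 13 arrays. In the RefSeq gene table of assembly T2T-MMU8v2.0, 2 long noncoding RNA genes, LOC144339989 and LOC106997691, overlap the HIPK2 gene. Which transcript each probe set reads was not determined here.

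HIPK2 mRNA was highest at the mid stage, the stage the labels give for peak progesterone output, and its signal was lower in the mid-late and lower again in the late glands. In 31361, the probe set with the highest mean, the mid arrays read 10.59, 9.85, 10.01 and 10.28 and the mid-late arrays 9.25, 9.12, 9.01 and 9.22. Every mid array was above every mid-late array, and the means differed by 2.05-fold. In 18164 the mid arrays read 9.91, 9.91, 9.46 and 9.30 and the mid-late arrays 8.32, 8.05, 7.98 and 8.08. The groups again did not overlap, and at 2.90-fold this was the largest difference among the 7 probe sets. In 18166 the mid arrays read 10.21, 9.68, 9.56 and 9.72 and the mid-late arrays 8.70, 8.70, 8.28 and 8.57, a difference of 2.35-fold.

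The other 4 probe sets had their highest mean at the mid stage too. The difference of mid-late minus mid was -0.90 in 27017, -0.69 in 40535, -0.40 in 18161 and -0.29 in 7761 on the log2 scale. In 18161 the ranges overlapped, with 4.74 to 6.71 at mid and 4.56 to 5.89 at mid-late. In 6 of the 7 probe sets all mid-late arrays lay below all mid arrays, where 2.65% of all 52707 tested probe sets did so. These values are among those that chose the gene, so nothing is read from that count. Leaving out any 1 of the 8 arrays left the difference between -0.90 and -1.15 in 31361 and between -1.45 and -1.65 in 18164. In 18161 it ran from -0.11 to -0.77, the widest spread of the 7.

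**Figure D1:**
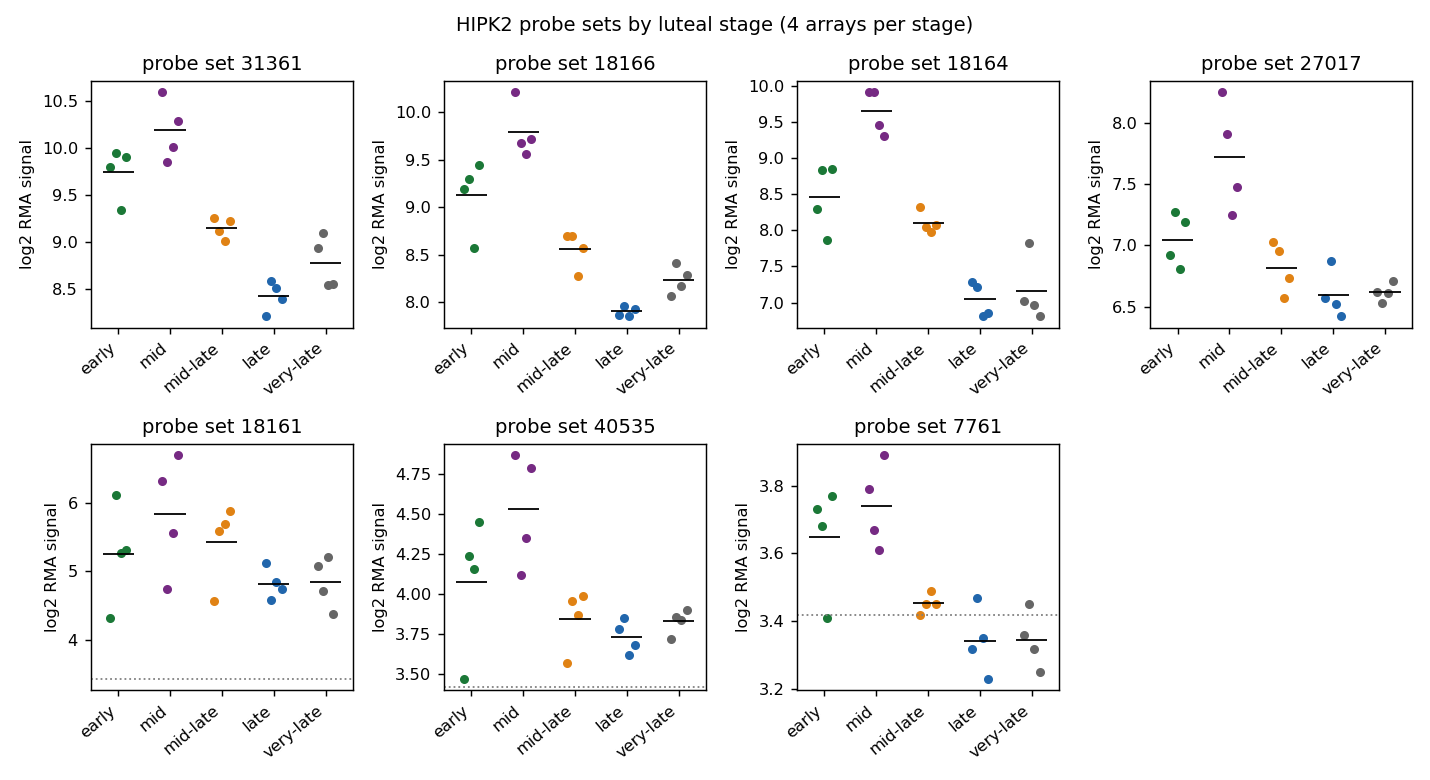
Log2 RMA signal of the 7 HIPK2 probe sets (vertical axes, which differ between panels and do not start at 0) in each array of the 5 luteal stages (horizontal axis). Points are arrays, 4 per stage, horizontal lines are stage means, and the dotted line in the last 3 panels is the background median of 3.42. In 31361 the mid arrays lie between 9.85 and 10.59 and the late arrays between 8.21 and 8.59.

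In 6 of the 7 probe sets the stage means ran, from the highest, mid, early, mid-late, very-late and late. Late and very-late were too close to order in 27017 and 18164, where their difference of 0.02 and 0.12 changed sign in other settings, and in 7761, where both were at 3.34, near background. In 31361 the means were 10.19 ± 0.32 (SD, n = 4) at mid, 9.75 ± 0.27 at early, 9.15 ± 0.11 at mid-late, 8.78 ± 0.28 at very-late and 8.42 ± 0.17 at late. The early arrays read 9.80, 9.94, 9.34 and 9.90, so early and mid overlapped, while every early array was above every mid-late array. The late arrays read 8.21, 8.59, 8.51 and 8.39 and the very-late arrays 8.94, 9.09, 8.54 and 8.55, and these stages overlapped. All 4 late arrays were below all 4 mid-late arrays. In 18164 the means were 9.65 ± 0.31 at mid, 8.46 ± 0.48 at early, 8.11 ± 0.15 at mid-late, 7.16 ± 0.45 at very-late and 7.05 ± 0.24 at late, and here early and mid did not overlap while early and mid-late did. The exception to the order was 18161, whose mid-late mean of 5.44 ± 0.60 lay above its early mean of 5.25 ± 0.74, with overlapping ranges.

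HIPK2 was lower in late than in early glands, in a comparison free of the stages that chose the gene. In the limma fit of the 12 early, late and very-late arrays, 4 of the 7 probe sets fell, with adjusted p-values taken over all 52707 tested probe sets, of which 2.58% were called lower. In 31361 the late arrays, given above, all lay below the early ones, and the signal fell by 1.32 ± 0.16 (SE, n = 4 per stage, adjusted p = 0.00127). In 18166 the early arrays read 9.19, 9.30, 8.57 and 9.44 and the late arrays 7.86, 7.96, 7.85 and 7.93. No late array reached an early one, and 18166 fell by 1.22 ± 0.16 (adjusted p = 0.00177). In 18164 the early arrays read 8.29, 8.84, 7.86 and 8.85 and the late arrays 7.28, 7.22, 6.81 and 6.86. They did not overlap either, and 18164 fell by 1.42 ± 0.26 (adjusted p = 0.0101). These are falls of 2.5-fold, 2.33-fold and 2.67-fold. How many of all probe sets had early and late arrays without overlap was not counted.

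The decrease was smaller in 27017, by 0.45 ± 0.12 (adjusted p = 0.0464), and its early (6.81 to 7.27) and late (6.42 to 6.87) arrays overlapped. This call was kept in 3 of the 12 fits that left out 1 array. It was lost without early replicate 1, 2 or 4, late replicate 1, 3 or 4, or very-late replicate 1, 3 or 4 (adjusted p up to 0.128). It was also lost in 5 of 9 other settings (adjusted p up to 0.134). Probe sets 18161 (-0.43 ± 0.31, adjusted p = 0.566), 40535 (-0.34 ± 0.17, adjusted p = 0.320) and 7761 (-0.30 ± 0.09, adjusted p = 0.0698) did not pass. Without early replicate 1, the lowest early array of 40535 at 3.47, that probe set passed (adjusted p = 0.00743), and without early replicate 3 so did 7761 (adjusted p = 0.0226). At an unadjusted p under 0.05, 5 of the 7 were lower, a count with no share of all probe sets to set beside it. The median change of the 7 was -0.45, against 0 for all tested probe sets.

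The lower level was also seen in very-late against early glands, a comparison that shares the early arrays. Here 5 of the 7 probe sets fell, where 7.91% of all tested probe sets were called lower. Probe set 31361 fell by 0.97 ± 0.16 (adjusted p = 0.00144), 18166 by 0.89 ± 0.16 (adjusted p = 0.00217) and 18164 by 1.30 ± 0.26 (adjusted p = 0.00464). In all 3 every very-late array was below every early array, and each call was kept in all 12 fits that left out 1 array. How many of all probe sets separated in this way was not counted. The other calls were 27017, which fell by 0.43 ± 0.12 (adjusted p = 0.0255), and 7761, which fell by 0.30 ± 0.09 (adjusted p = 0.0339) and lay near background at both stages. The call of 27017 was lost without early replicate 2 or 4 or very-late replicate 1, 2 or 3 (adjusted p up to 0.0763), and in 4 of 9 other settings (adjusted p up to 0.132). That of 7761 was lost without early replicate 1, 2 or 4 or very-late replicate 1, 3 or 4 (adjusted p up to 0.0973). Without early replicate 2 or 4 or very-late replicate 1 or 3 the count of 5 became 3.

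From the late to the very-late stage no HIPK2 probe set passed. The limma fit called 0 of 7 in either direction, where 10.8% of all tested probe sets were called, and 1 of 7 was higher at an unadjusted p under 0.05. The changes were 0.36 ± 0.16 in 31361 (adjusted p = 0.211), 0.33 ± 0.16 in 18166 (adjusted p = 0.242) and 0.12 ± 0.26 in 18164 (adjusted p = 0.863). In 18166 the very-late arrays, at 8.06, 8.41, 8.17 and 8.29, were all above the late ones, and without early replicate 3 this probe set passed (adjusted p = 0.0302). In 18164 very-late replicate 2 read 7.82 and the other 3 read 6.82 to 7.02. Over the same step the luteal genes fell: STAR, which carries cholesterol into the mitochondrion, by 4.22 ± 0.38 (limma, 20 arrays, adjusted p = 4.33e-07), HSD3B2, which makes progesterone, by 3.30 ± 0.37 (adjusted p = 6.79e-06), and INHA, the alpha subunit of inhibin, by 3.63 ± 0.50 (adjusted p = 5.43e-05). All very-late arrays were below all late arrays in each of these 3 genes. In the same fit 7.03% of all tested probe sets were called lower.

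Probe set 27017 changed less than 31361 over the early, late and very-late stages. The signal of 31361 minus that of another probe set was taken in each array, and its change over the 3 stages was tested by exact permutation of the 12 arrays, in 6 tests with Benjamini-Hochberg adjustment. Against 27017 the difference went from 2.70 ± 0.15 (SD, n = 4) at early to 1.83 ± 0.18 at late and 2.16 ± 0.34 at very-late (exact p = 0.00242, adjusted p = 0.00726). The differences to 40535 and 7761 are not given, since those probe sets were above the 95th percentile of background in 4 and 0 of 20 arrays. Against 18166 the difference was 0.62 ± 0.13 at early, 0.52 ± 0.15 at late and 0.55 ± 0.28 at very-late (exact p = 0.753, adjusted p = 0.753). For 18164 (exact p = 0.288, adjusted p = 0.346) and 18161 (exact p = 0.108, adjusted p = 0.162) no change was detected, which does not show that they change alike.

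**Figure D2:**
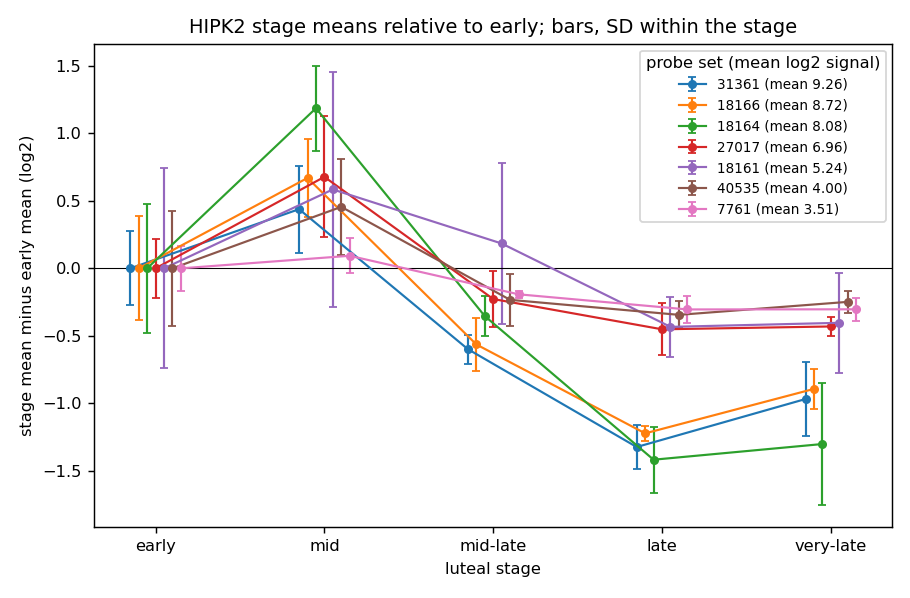
Stage mean minus early mean (log2, vertical axis) for the 7 HIPK2 probe sets across the 5 stages (horizontal axis), with bars for the SD of the 4 arrays of the stage. At the late stage 31361, 18166 and 18164 lie at -1.32, -1.22 and -1.42, and 27017 at -0.45.

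The probe sets also varied together from gland to gland. Over the 20 arrays Pearson's r among 31361, 18166 and 18164 was 0.929 to 0.968, and 0.542 to 0.723 after each stage mean was removed. These are descriptions, since the probe sets share arrays and gene. Probe set 18161 followed 40535 (r = 0.782, and 0.772 after removing stage means) more than it followed 18164 (0.526 and -0.043). In both 18161 and 40535 the lowest early array was replicate 1 (4.31 and 3.47), the lowest mid array replicate 2 (4.74 and 4.12) and the lowest mid-late array replicate 1 (4.56 and 3.57). Early replicate 1 and mid replicate 2 also had the largest excess of the 3' over the 5' actin signal among the 20 arrays, at 0.523 and 0.973, while mid-late replicate 1 was at 0.262, inside the -0.199 to 0.369 of the other arrays. The 3' excess of GAPDH, the other such control, was 1.33 to 1.78 in early arrays, 1.16 to 1.46 in late arrays and 0.831 to 1.35 in 3 very-late arrays, while very-late replicate 1 stood apart at 2.70. It was thus higher in early than in late arrays on average, with overlap. HIPK2 was higher in early arrays too, without overlap in 31361, 18166 and 18164. The part of RNA quality in these values was not tested.

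The 20 arrays fell into 2 sets by 4 of the 6 probe sets of the mitochondrial genome, whose mean was 6.06 to 8.50 in 7 arrays and 12.59 to 13.58 in 13. The remaining pair of mitochondrial probe sets showed no such gap, at 11.07 to 12.63 and 6.23 to 7.75 over all arrays. The lower set holds every mid array together with 1 array each of 3 other stages: early replicate 4, replicate 1 of mid-late, and replicate 2 of very-late. Stage and set overlap, so at the mid stage they cannot be told apart. Mid-late replicate 1, from the low set, read 9.25 in 31361 and 8.32 in 18164, each the highest of its stage yet below every mid array. The same array was also the highest mid-late array in 27017 (7.03 against 6.57 to 6.95) and level with the top in 18166 (8.70 against 8.28 to 8.70). The low array of the very-late stage was highest of its stage in 31361 (9.09 against 8.54 to 8.94) and 18164 (7.82 against 6.82 to 7.02). It was also highest in 18166 (8.41 against 8.06 to 8.29) and 7761 (3.45 against 3.25 to 3.36). In 27017 it was lowest (6.53 against 6.61 to 6.71), and in 18161 and 40535 it lay within the others. At mid-late the low array was the lowest in 18161 (4.56 against 5.59 to 5.89), 40535 (3.57 against 3.87 to 3.99) and 7761 (3.42 against 3.45 to 3.49). Early replicate 4 lay within the other early arrays in 31361 (9.90 against 9.34 to 9.94). The same held in 27017 (7.19 against 6.81 to 7.27) and 18161 (5.31 against 4.31 to 6.12). In 18164 (8.85 against 7.86 to 8.84) and 18166 (9.44 against 8.57 to 9.30) that array was the highest of its stage. It was also the highest in 40535 (4.45 against 3.47 to 4.24) and 7761 (3.77 against 3.41 to 3.73). With a term for the set, late minus early was -1.25 in 31361 (limma, adjusted p = 0.00153), -1.14 in 18166 (adjusted p = 0.00195) and -1.24 in 18164 (adjusted p = 0.00643).

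**Figure D3:**
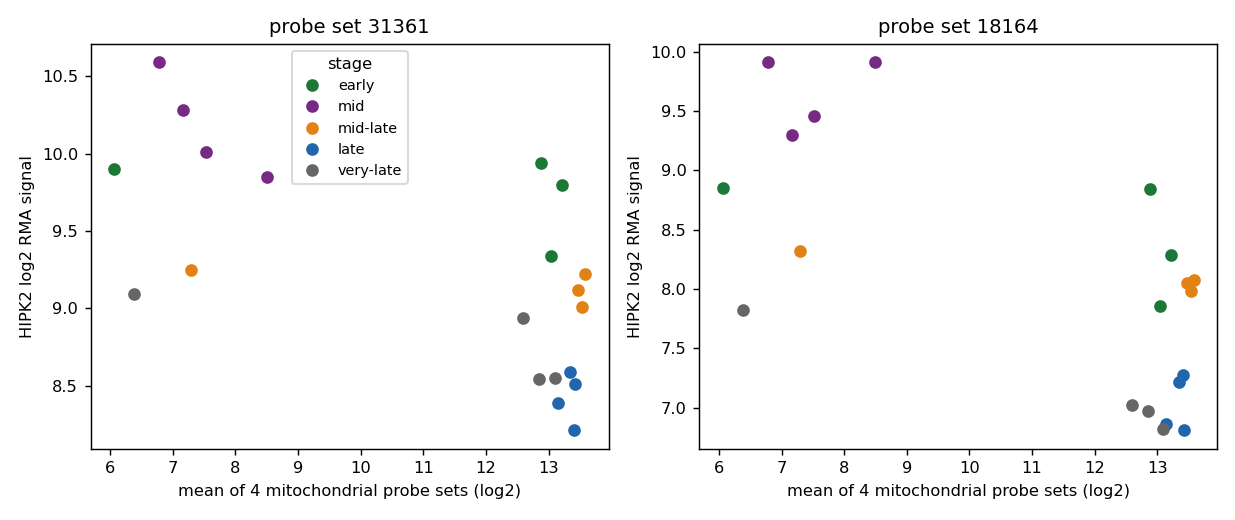
HIPK2 log2 RMA signal (vertical axes, not starting at 0) against the mean log2 signal of 4 mitochondrial probe sets (horizontal axis) for the 20 arrays, coloured by stage, in probe set 31361 on the left and 18164 on the right. The mid-late array on the left of each panel, at 9.25 and 8.32, lies below all 4 mid arrays.

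No cell type marker passed between mid and mid-late. Of 24 measured marker genes of 35 listed, limma called 0. Without adjustment, 1 had a p under 0.05 with a higher signal and 2 with a lower one. After adjustment, 0% of all tested probe sets were called higher and 0.0114% lower, so nothing is read from the count of 0. The mean of the 2 measured erythrocyte markers was 6.51 to 7.14 in mid arrays and 5.93 to 6.47 in mid-late arrays, without overlap and in the same direction as HIPK2. The steroid-making markers were at 12.41 to 12.56 and 12.11 to 12.44, macrophage markers (4 of 5 measured) at 6.05 to 6.64 and 5.96 to 7.57, endothelial markers (6 of 6) at 8.23 to 8.42 and 8.41 to 8.61, and fibroblast markers (5 of 5) at 8.58 to 9.23 and 8.90 to 9.86. The 2 measured smooth muscle and pericyte markers of 5 were at 8.88 to 9.78 and 8.77 to 9.80, and the 2 lymphocyte markers of 4 at 3.97 to 4.04 and 3.99 to 4.97. Between early and late arrays, where HIPK2 fell, the steroid-making markers went from 12.13 to 12.42 down to 10.95 to 11.84, without overlap. The endothelial markers went from 7.79 to 8.13 up to 8.47 to 8.62 and the lymphocyte markers from 4.55 to 4.61 up to 4.65 to 5.00, both without overlap, while the macrophage markers, at 7.00 to 7.41 and 7.33 to 8.26, overlapped, as did those of fibroblasts, smooth muscle and erythrocytes. The part of cell makeup in the HIPK2 values was not tested.

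The related kinases HIPK1 and HIPK3 did not pass in any comparison of neighbouring stages in their representative probe sets, those with the highest mean. HIPK1 lay near background, at stage means of 3.83 to 4.03. HIPK3 was at 3.98 ± 0.20 (SD, n = 4) at early, 4.43 ± 0.75 at mid, 4.80 ± 0.20 at mid-late, 4.72 ± 0.33 at late and 4.94 ± 0.32 at very-late, with changes of 0.37 ± 0.27 (SE) from mid to mid-late (limma, 20 arrays, adjusted p = 0.883) and 0.23 ± 0.27 from late to very-late (adjusted p = 0.698). A second HIPK1 probe set, at 3.42 at late and 3.64 at very-late, rose by 0.22 ± 0.07 (adjusted p = 0.0427) within the range of background. HIPK4 has no probe set of its own symbol here.

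The genes beside HIPK2 in the RefSeq table were examined as a comparison of position. None of LUC7L2, CLEC2L, TBXAS1, PARP12 and KDM7A passed from mid to mid-late in limma's fit, with changes of -0.24 to 0.27 over their 9 probe sets. Of all probe sets 0% were called higher at that step and 0.0114% lower, so nothing is read from their not passing. KLRG2 has no probe set of its own symbol here. TBXAS1, the thromboxane synthase, rose from 4.66 ± 0.13 (SD, n = 4) at late to 5.85 ± 0.34 at very-late, a change of 1.19 ± 0.13 (SE, adjusted p = 3.67e-06). PARP12, an ADP-ribosyltransferase of the interferon response, rose by 1.14 ± 0.19 (adjusted p = 0.000481). KDM7A, a histone demethylase, rose in 1 of 2 probe sets, by 0.66 ± 0.13 (adjusted p = 0.00143). Of all probe sets 6.75% were called higher over that step. The mean of the macrophage markers went from 7.92 to 10.06, and its part in these rises was not tested. HIPK2 did not pass over that step in its fit of 12 arrays, while its neighbours were tested in the fit of 20.

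**Figure D4:**
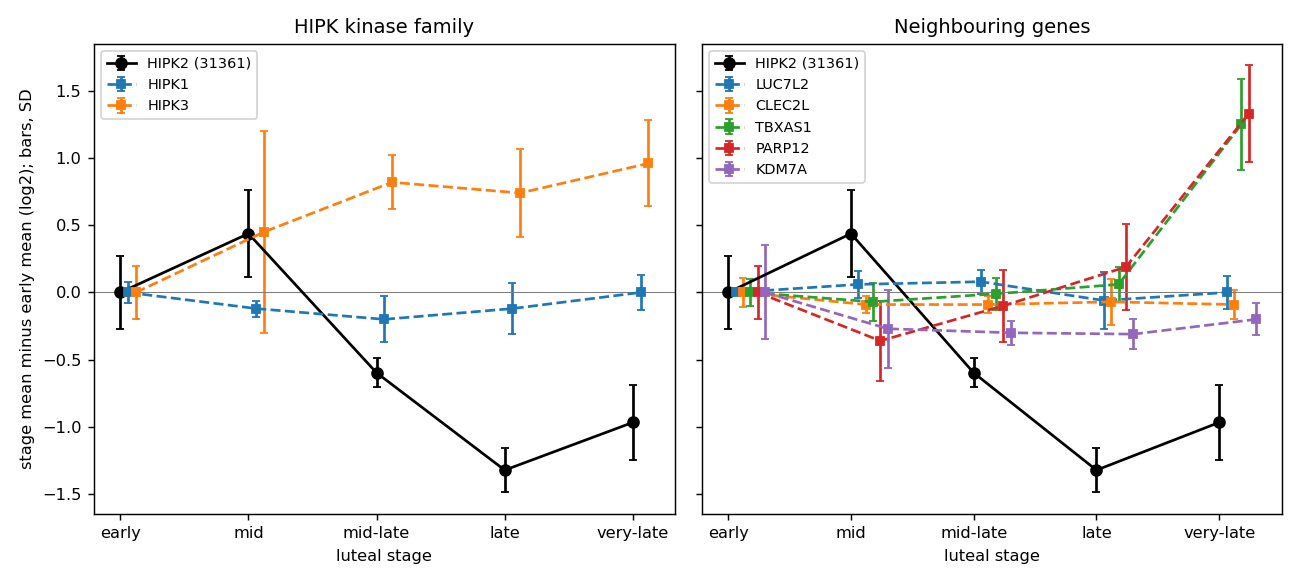
Stage mean minus early mean (log2, vertical axis) across the 5 stages (horizontal axis) for HIPK2 probe set 31361 with HIPK1 and HIPK3 on the left and with 5 neighbouring genes on the right. Bars are the SD of the 4 arrays of the stage. At the very-late stage HIPK2 is at -0.97, while TBXAS1 and PARP12 lie above their early level.

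Genes that act with HIPK2 were taken from a list of 46, of which 31 were measured, and tested in the fit of 20 arrays. From early to mid 0 of 31 passed, where 0.188% of all probe sets were called higher and 0.175% lower. From mid to mid-late 0 of 31 passed, where 0% were called higher and 0.0114% lower, and from mid-late to late 0 of 31 passed, where 0.00379% of all were called higher and 0.00759% lower. Before adjustment, limma gave a p under 0.05 to 5 higher and 2 lower members at the first step, 3 and 3 at the next, and 2 and 1 at the last. The share of all probe sets at that threshold was not counted, so nothing is read from these counts. The median change of the list was -0.002 from early to mid (all probe sets -0.001), 0.004 from mid to mid-late (all probe sets -0.002) and 0.053 from mid-late to late (all probe sets 0.004). In very-late against late 5 rose and 4 fell, where 6.75% of all were called higher and 7.03% lower. The list's median there was 0.054, against 0.017 for all probe sets.

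Among the regulators of HIPK2 turnover none of the ubiquitin ligases SIAH1, SIAH2, WSB1 and MDM2 passed at any step. SIAH1, which marks HIPK2 for degradation, read 6.64, 6.34, 6.60 and 6.63 at mid and 6.87, 6.72, 6.88 and 6.70 at mid-late. The mid-late arrays were all above the mid arrays, but the change of 0.24 ± 0.11 did not pass (limma, adjusted p = 0.758). MDM2, another ligase, read 4.08, 3.91, 4.20 and 4.08 at mid and 4.20, 4.56, 4.44 and 4.44 at mid-late, a change of 0.34 ± 0.15 that did not pass (adjusted p = 0.736). The probe set used, of 4 for MDM2, had stage means of 4.07 to 4.54, near the 95th percentile of background at 4.3. Its not passing therefore says little about MDM2. WSB1 was at 0.41 ± 0.16 from late to very-late (adjusted p = 0.104) and SIAH2 at -0.48 ± 0.17 from early to mid (adjusted p = 0.268). At the very-late stage CASP6, a caspase that cleaves HIPK2, fell by 0.86 ± 0.13 (adjusted p = 0.000173) and the F-box protein gene FBXO3 fell by 0.74 ± 0.21 (adjusted p = 0.0226).

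The other partners past the test were also called in very-late against late. Few of all probe sets were called at earlier steps, so the time of change is not read from the calls. TLE3 and NLK were higher by 0.38 and 0.33 at mid than at early without passing (limma, adjusted p = 0.195 and 0.193). CASP6 was lower by 0.50 at late than at mid-late (adjusted p = 0.291). From late to very-late 4 of the 24 measured cell type markers rose and 8 fell. Of all probe sets 6.75% were called higher and 7.03% lower. The mean of the macrophage markers went from 7.92 to 10.06, that of the lymphocyte markers from 4.90 to 6.15 and that of the steroid-making markers from 11.56 to 7.84. Their part in the changes of these genes was not tested. TLE3, a Groucho corepressor, rose by 0.71 ± 0.12 (limma, adjusted p = 0.000459). The acetyltransferase EP300 rose by 0.41 ± 0.10 (adjusted p = 0.00658), HMGA1, a chromatin protein that HIPK2 phosphorylates, by 0.96 ± 0.24 (adjusted p = 0.0101) and NFE2L2, the NRF2 factor of the antioxidant response, by 0.54 ± 0.13 (adjusted p = 0.00843). HMGA1 read 7.27 in very-late replicate 2 and 5.92 to 6.12 in the other very-late arrays. Without that replicate its change was 0.64, and with the mean of its probe sets 0.63. NFE2L2 lost its call with the mean of its probe sets, at 0.34 (adjusted p = 0.0728). NLK, a kinase that works with HIPK2 in Wnt signalling, fell by 0.53 ± 0.10 (adjusted p = 0.00162) and TCF7L1, a Wnt transcription factor, fell by 0.30 ± 0.09 (adjusted p = 0.0233). MYB rose by 0.17 ± 0.06 (adjusted p = 0.0497) at a very-late mean of 3.50, near background, and was kept in 4 of the 20 fits that left out 1 array. The FBXO3 call was lost without late replicate 2, 3 or 4 or very-late replicate 2 or 4, and the TCF7L1 call without late replicate 1 or 4 or very-late replicate 1 or 2. EP300, HMGA1, FBXO3, TCF7L1 and MYB did not pass when only the 8 late and very-late arrays were fitted (adjusted p = 0.0607 to 0.145).

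The genes most like HIPK2 over the 20 arrays were ranked by Pearson's r among 2009 genes whose stage means spanned at least 2-fold. The arrays share stages, so these are descriptions. For 31361 the highest were SLC20A1, a phosphate transporter (r = 0.909), LOC709054 (0.876), PLP2, a membrane protein of the endoplasmic reticulum (0.876), DLAT, the E2 subunit of pyruvate dehydrogenase (0.868), and PPIF, the mitochondrial cyclophilin (0.868). SLC20A1 had stage means of 9.45, 9.54, 8.38, 7.51 and 7.54 from early to very-late, and its r after removing stage means was 0.747, the highest of the named genes. It was 0.726 for PLP2, 0.715 for PPIF, 0.502 for LOC709054 and 0.366 for DLAT. For 18164 they were AMDHD1, an enzyme of histidine breakdown (0.902), OSGIN1, an oxidative stress gene (0.898), AFF2, a nuclear protein of the AF4 family (0.883), DLAT (0.879) and LOC709054 (0.866). AMDHD1 went from 6.27 at early to 8.46 at mid, 6.25 at mid-late, 4.63 at late and 4.04 at very-late. After removing stage means r was 0.572 for OSGIN1, 0.457 for AMDHD1, 0.397 for LOC709054, 0.336 for DLAT and -0.018 for AFF2. So AFF2 followed 18164 between stages, and no relation was seen within them. Its late and very-late means, 3.31 and 3.23, lay below the background median of 3.42, where a relation within a stage could hardly show. DLAT and LOC709054 were in both groups.

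The most opposite genes for 31361 were FTL, the ferritin light chain (r = -0.845), MAMU-I, an MHC class I gene (-0.837), and BTN3A3, a butyrophilin (-0.814). Within stages r was -0.099 for FTL, 0.061 for MAMU-I and -0.092 for BTN3A3, so these relations lay between stages. FTL and MAMU-I belong to families with near-identical members, so their signals may be shared. For 18164 they were LYZ, the lysozyme of macrophages (-0.878), ALPK1, an alpha-kinase of innate immunity (-0.876), and CARINH, a noncoding RNA (-0.867), with -0.307, -0.223 and -0.599 within stages. LYZ had its lowest mean, 6.48, at the mid stage, where HIPK2 was highest, and its highest, 11.66, at very-late. By Spearman's rho 3 of the 5 highest genes stayed among the 5 highest for each probe set. FTL and MAMU-I stayed among the 3 lowest for 31361, and ALPK1 for 18164. BTN3A3, LYZ and CARINH did not.

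**Figure D5:**
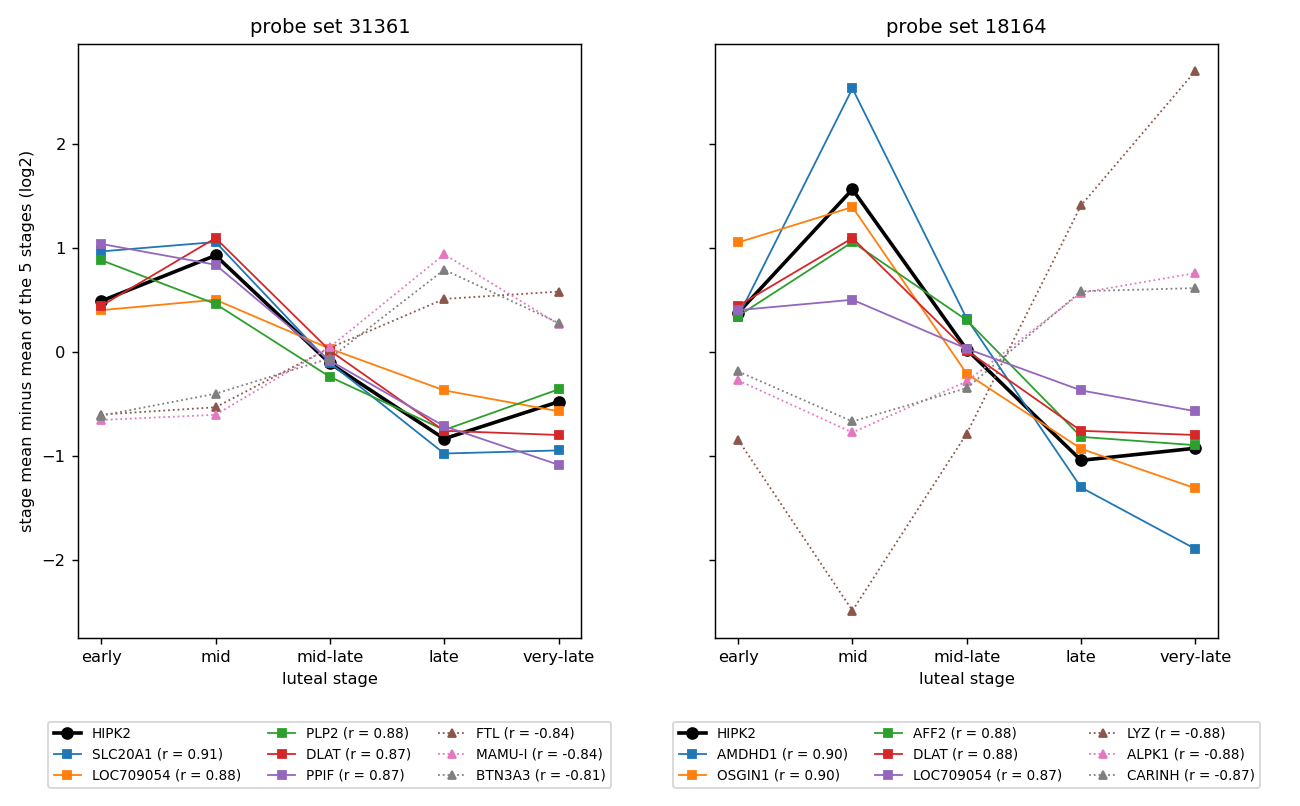
Stage mean minus the mean of the 5 stages (log2, vertical axis) across the 5 stages (horizontal axis) for HIPK2 (black), the 5 genes with the highest r (squares, solid lines) and the 3 with the lowest (triangles, dotted lines), for probe set 31361 on the left and 18164 on the right. Numbers in the legends are Pearson's r over 20 arrays, such as 0.91 for SLC20A1.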

How the data were processed

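The deposited table holds 1 log2 value per probe set and array, which the authors made with RMA, per the submitters' processing notes. Its version, the chip definition and filters are not given in the sources used here. That the scale is log2 follows from the range of the values, 2.48 to 14.28, which were not scaled again. After removal of 158 control probe sets 52707 of 52865 were tested, dim ones included. Symbols came from the platform annotation (24956 probe sets with 1 symbol, 361 with several, 27390 with none) and were updated by gene identifier. Among several probe sets for a gene other than HIPK2, that of highest mean stood for it.

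In R 4.3.3, limma 3.58.1 (lmFit, eBayes) fitted stage means with two-sided tests and Benjamini-Hochberg adjustment over 52707 probe sets, past at an adjusted p under 0.05. HIPK2 was fitted on the 12 early, late and very-late arrays (9 residual degrees of freedom), other genes on all 20 (15). The procedure was tested on simulated data. HIPK2, its gene lists, tests and alternatives were chosen with earlier results of these data known. Named genes were the HIPK2 partners past the test, the kinase family, 4 fixed ubiquitin ligases, and the 5 highest and 3 lowest correlations. A planned limit of 8 list members per comparison was not kept. Replicates are labelled biological. If glands shared an animal, p-values would be too small. The number of arrays limits the precision. Shares of all probe sets were not taken for unadjusted p-values, or for separation of arrays other than mid-late below mid. Some genes of the design are not reported here.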

Additional observations from a re-analysis of the deposited data

How the results depend on the processing

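The falls of 31361, 18166 and 18164 in late and very-late against early passed in all 9 other settings and in all 12 fits that left out 1 array. Among the 9 is the fit of all 20 arrays. Its spread takes in the mid and mid-late arrays that chose the gene, so no support is drawn from that setting. After removing stage means, r was -0.241 to 0.202 in 40 same-numbered pairs of arrays and above 0.1 in 7. Differently numbered pairs were not compared, so whether replicate numbers pair the glands was not settled. With the replicate block 3 instead of 4 HIPK2 probe sets passed in late against early, 27017 being lost (adjusted p = 0.0633). That call was also lost with cyclic loess (0.0612), the trended prior (0.0959), all 20 arrays (0.134) and the mitochondrial term (0.0723), and the 27017 call in very-late against early with cyclic loess (0.0599), the trended prior (0.0585), all 20 arrays (0.0965) and without very-late replicates 1 and 2 (0.132). Over fits without 1 array, the count was 3 to 5 in late against early, 3 to 5 in very-late against early and 0 to 1 in very-late against late. Without very-late replicates 1 and 2, chosen after seeing the data, very-late against early had 3. No probe set was called in very-late against late, and small values there changed sign. Probe set 7761 (0.00) was at -0.021 with cyclic loess, -0.028 with median centring, -0.033 with array weights, -0.037 with the mitochondrial term and -0.061 without very-late replicates 1 and 2. Probe set 27017 was at -0.007 with median centring. Probe set 18164 was at -0.06 with the mitochondrial term and -0.146 without those replicates, and 18161 at -0.023 without them. Without 1 array they ran from -0.037 to 0.042 (7761), -0.035 to 0.112 (27017), -0.105 to 0.229 (18164) and -0.091 to 0.184 (18161). From early to mid the HIPK2 partners past the test became 1 with the mean of probe sets and 0 to 1 without 1 array. In very-late against late 4 of 9 partners passed with only the 8 arrays. Fewer samples enter that fit, and otherwise the cause was not tested.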
